A study of Mus musculus with 4 samples.

Results

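The tumour suppressor p53, encoded by Trp53, and 9 of its well-known transcriptional targets (Mdm2, Ccng1, Phlda3, Trp53inp1, Sesn1, Zmat3, Aen, Eda2r and Rrm2b) were followed by RNA-seq in primary T cells of the mouse, as read counts per gene. The 10 genes were chosen by symbol, each symbol stood on a single row, and they are 10 of the 54532 genes in the count table. Libraries came from cells treated with PTC (n = 2) and from cells labelled Control (n = 2), all at 12 h. Both groups grew in serum-containing medium with the T cell growth factor IL2 and CD3/28 beads, which mimic antigen and costimulation, so all cells compared were stimulated and the groups differ by PTC. The labels do not expand PTC and give no dose, vehicle, strain, age or sex. Whether libraries stem from separate cultures or animals is not stated, so p-values here cover only the spread between samples, which may be technical.

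p53 is a transcription factor that is kept scarce by MDM2, a ubiquitin ligase whose own gene p53 activates. DNA damage, ribosomal stress or oncogene signalling releases p53 from MDM2, mostly at the level of the protein rather than of the Trp53 transcript, and p53 then activates genes that stop the cell cycle, repair DNA, adjust metabolism and growth signalling, or start apoptosis. In T cells p53 restrains proliferation after stimulation of the antigen receptor. Because p53 activity is set largely at the protein level, the transcripts of its targets are a common readout of the pathway.

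With PTC, Ccng1 and Phlda3 rose, by 1.33-fold and 1.54-fold, while Trp53 and Mdm2 stood at 97.8% and 101% of their Control means (CPM, counts scaled to library size). Neither these nor the other 6 targets passed the test: of the 6, Rrm2b, Zmat3, Aen, Sesn1 and Trp53inp1 had positive log2 fold changes and Eda2r a negative one. Thus 2 of 10 members were called higher and 0 lower by edgeR's quasi-likelihood test at a Benjamini-Hochberg adjusted p under 0.05, adjusted over all 13884 tested genes, where 1.35% of genes were called, 0.591% higher and 0.763% lower (82 and 106 genes, or 71 and 205 with library totals as the scaling). All 10 members passed the filter on low counts, Eda2r with 5 to 19 counts per library. Over the 10 members the median log2 fold change (PTC over Control) was 0.09, beside -0.003 over all tested genes, and 8 of 10 were positive, beside 49.3% of all tested genes. Both PTC libraries stood above both Control libraries for 3 of 10 members and below them for 0 of 10, where the shares of all tested genes were 21.3% and 22.2%.

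The promoters of the genes that rose are shown because p53 acts by binding DNA. Its binding element is a pair of decamers set 0 to 13 bases apart. The decamer was searched for by its consensus, a pattern with alternative bases that reads alike on both strands. A single match need not read alike on both. The search used the RefSeq promoter windows of build GRCm38.p6, which run from 250 bases before to 50 bases after an annotated transcription start. The 250 bases before the start follow, 5′ to 3′ on the gene's own strand, with a match to the p53 decamer in capitals. The Ccng1 stretch is chr11:40755287-40755536 (minus strand) and the Phlda3 stretch is chr1:135765835-135766084 (plus strand).
Ccng1: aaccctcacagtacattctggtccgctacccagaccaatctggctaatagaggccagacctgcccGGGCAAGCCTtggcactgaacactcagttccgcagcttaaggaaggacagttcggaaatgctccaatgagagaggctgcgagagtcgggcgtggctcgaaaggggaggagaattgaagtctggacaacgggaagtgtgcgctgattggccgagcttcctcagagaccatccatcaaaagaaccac
Phlda3: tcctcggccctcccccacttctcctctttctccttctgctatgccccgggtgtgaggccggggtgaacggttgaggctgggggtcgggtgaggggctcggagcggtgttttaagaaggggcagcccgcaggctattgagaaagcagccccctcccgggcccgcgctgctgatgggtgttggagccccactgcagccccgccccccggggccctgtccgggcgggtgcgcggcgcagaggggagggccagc

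Promoter windows were found for 7 of the 10 members, and Aen and Sesn1 had 2 windows each. Of these 7 genes 5 held the decamer, whereas 9.55% of all 27025 genes with a window did. Ccng1 held it at -185 from the start, and Phlda3 and Eda2r held no match in this window, which says only that these letters are not in it. The remaining matches are given so that the letters can be compared.
Mdm2, at -186: GAACTTGCCT
Trp53, at -75: GGACTTGCCC
Aen, at -121 and, from its other annotated start, at 11: GGGCTTGTCC
Sesn1, at -173 in the window of its downstream start: AAGCTTGTTT

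No member window held a pair of decamers within the allowed spacing, and 0.0731% of all 32851 windows did. Of the members that rose, Ccng1 had the decamer and Phlda3 did not. Of the others with a window, Trp53, Mdm2, Aen and Sesn1 had it and Eda2r did not. No window was found for Zmat3, Trp53inp1 and Rrm2b. With 7 genes, 2 of which rose, the matches cannot show whether the decamer goes with the change. A match is a run of letters and was not tested for binding.

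Levels of the 10 genes were compared per length as TPM (counts scaled by gene length and library, computed from the counts and lengths in the table). Trp53 was the most abundant, at 147 ± 1.01 TPM in PTC and 155 ± 6.75 TPM in Control cells (SD, n = 2 each, as for all means below). Ccng1 came next, with 57.3 to 88.1 TPM over the 4 libraries, apart from Trp53 above it and from Trp53inp1 below it. Trp53inp1 (35.6 to 40.9 TPM), Phlda3 (24.0 to 47.5 TPM) and Sesn1 (33.1 to 37.3 TPM) overlapped in that order, each with the next. Mdm2 lay at 21.8 to 26.8 TPM, and Aen (17.4 to 20.4 TPM) and Zmat3 (14.6 to 19.9 TPM) overlapped below it. Rrm2b (1.31 to 1.87 TPM) and Eda2r (0.124 to 0.510 TPM) stood far lower, without overlap.

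**Figure D1:**
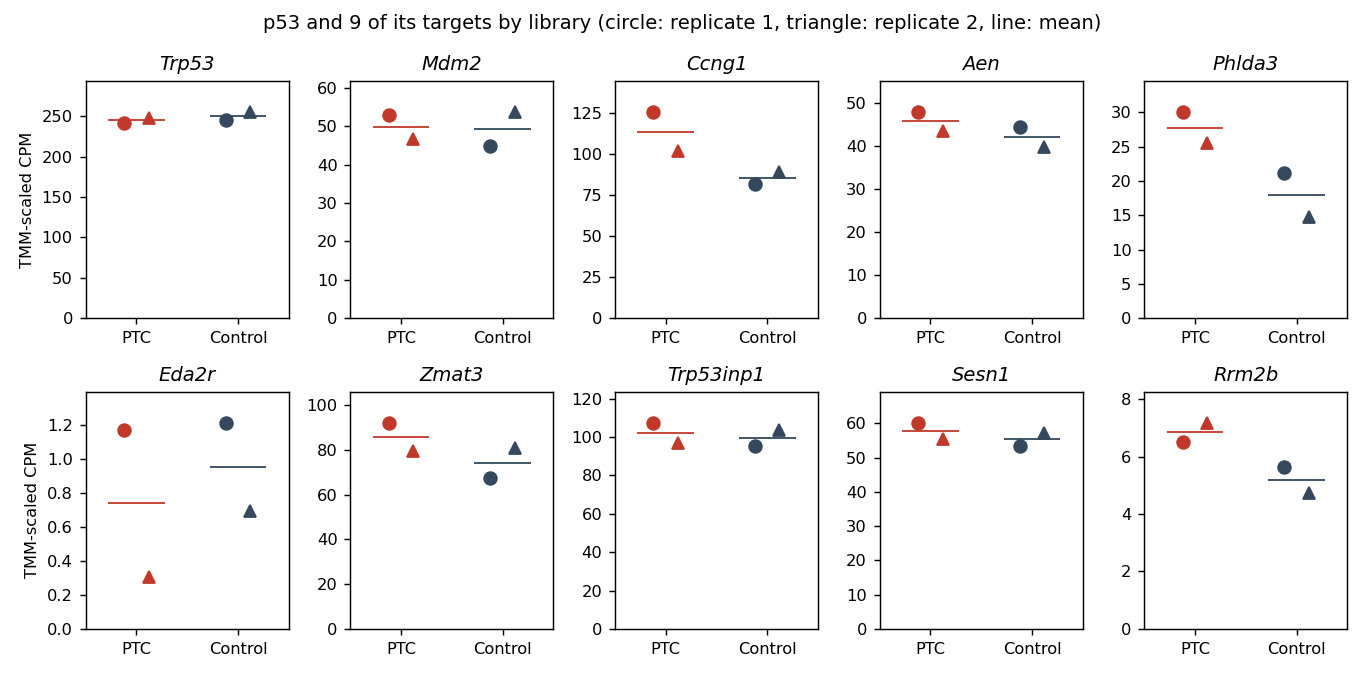
TMM-scaled CPM of each member (y axis, from 0) in the PTC and Control libraries (x axis). Circles are replicate 1, triangles replicate 2 and lines group means. In Ccng1, Phlda3 and Rrm2b both PTC libraries lie above both Control libraries, and in the other 7 members the groups overlap.

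Trp53 (ENSMUSG00000059552, chromosome 11, 69580359 to 69591873, plus strand, GRCm38) had 242 and 248 CPM in PTC 1 and 2, against 246 and 255 CPM in Control 1 and 2. The 4 values lay close together and the groups overlapped. Its log2 fold change was -0.03 (standard error 0.07, edgeR adjusted p = 0.908), and the 95% interval of the fold ran from 0.879 to 1.09. Of the 50-base words of Trp53 3.04% also occur, on either strand, in transcripts of other genes, a pseudogene copy, Trp53-ps, among them. Trp53-ps had 95 and 97 counts in PTC and 89 and 124 counts in Control libraries, against 3715 to 4060 for Trp53.

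Mdm2 (chromosome 10, 117688875 to 117710758, minus strand), which encodes the ligase that degrades p53 and closes the feedback loop, had 52.9 and 46.7 CPM in PTC 1 and 2, against 44.8 and 53.7 CPM in Control 1 and 2. Both PTC values fell between the Control values. The log2 fold change was 0.02 (standard error 0.10, edgeR adjusted p = 0.974) and an interval of the fold from 0.868 to 1.18. Its sign turned with library totals as the scaling (-0.03) and when Control 1 (-0.10) or PTC 1 (-0.08) was left out.

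Ccng1 (ENSMUSG00000020326, chromosome 11, 40748552 to 40755311, minus strand) encodes cyclin G1, which recruits the phosphatase PP2A to MDM2 and so takes part in the same feedback. It had 125 and 102 CPM in PTC 1 and 2, against 81.3 and 88.7 CPM in Control 1 and 2, from 1928 and 1657 counts in PTC and 1273 and 1411 counts in Control libraries. Both PTC libraries stood above both Control libraries, PTC 1 well above PTC 2. The log2 fold change was 0.42 (standard error 0.09), a fold of 1.33 with a 95% interval from 1.17 to 1.53 (edgeR adjusted p = 0.029). Without PTC 1 the log2 fold change was 0.26 and the call was lost (adjusted p = 0.703), and without Control 1 it was 0.36 (adjusted p = 0.054). Limma-voom (adjusted p = 0.038) and DESeq2 (adjusted p = 0.018) called it as well, and over 12 alternative settings 10 called it, with adjusted p from 0.00027 to 0.703.

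Phlda3 (ENSMUSG00000041801, chromosome 1, 135766119 to 135769136, plus strand) encodes a small pleckstrin homology domain protein that competes with AKT for membrane lipids and so restrains AKT. Its values were 30.1 and 25.5 CPM in PTC 1 and 2, against 21.2 and 14.8 CPM in Control 1 and 2, from 462 and 415 counts in PTC and 332 and 235 counts in Control libraries. The groups did not overlap, and the Control libraries differed from each other more than the PTC libraries did. The log2 fold change was 0.63 (standard error 0.15), a fold of 1.54 with a 95% interval from 1.24 to 1.92 (edgeR adjusted p = 0.044). The call was lost without PTC 1 (log2 fold change 0.50, adjusted p = 0.245), without Control 2 (0.39, adjusted p = 0.178) and under RLE scaling (0.63, adjusted p = 0.0502), and held in the other 9 of 12 alternative settings (adjusted p from 0.00039 to 0.245 over the 12).

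Aen and Eda2r, like many p53 targets, are tied to cell death. Aen, which encodes an exonuclease that degrades DNA in apoptosis, had 48.0 and 43.6 CPM in PTC 1 and 2, against 44.5 and 39.8 CPM in Control 1 and 2. The groups overlapped, with PTC 2 below Control 1, and the log2 fold change was 0.12 (standard error 0.10, edgeR adjusted p = 0.673). Eda2r, an X-linked gene for a death-domain-free receptor of the TNF receptor family that binds the A2 form of ectodysplasin, had 18 and 5 counts in PTC 1 and 2, against 19 and 11 counts in Control 1 and 2. At this depth the interval of its fold, 0.331 to 1.79, spans both directions. Eda, the gene of its ligand, had 0 counts in each library, which allows up to 0.184 to 0.195 CPM per library.

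Zmat3, Trp53inp1 and Sesn1 act in RNA control, autophagy and growth signalling. Zmat3, the gene of a zinc finger RNA-binding protein, had 92.1 and 79.4 CPM in PTC 1 and 2, against 67.5 and 80.6 CPM in Control 1 and 2. PTC 1 was the highest library, PTC 2 lay within the Control range, and the log2 fold change of 0.21 (standard error 0.10) had an unadjusted p of 0.041 and an edgeR adjusted p of 0.357. Trp53inp1, which encodes a stress protein of p53 activation and autophagy, had 107 and 97.1 CPM in PTC 1 and 2, against 95.1 and 104 CPM in Control 1 and 2. Its log2 fold change was 0.04 (standard error 0.08, edgeR adjusted p = 0.882). With Control 1 left out it was -0.01, and with PTC 1 left out -0.03. Sesn1, the gene of sestrin 1, an inhibitor of mTORC1 signalling, had 60.2 and 55.4 CPM in PTC 1 and 2, against 53.5 and 57.2 CPM in Control 1 and 2. The groups overlapped, with a log2 fold change of 0.06 (standard error 0.09, edgeR adjusted p = 0.830).

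Rrm2b encodes p53R2, the ribonucleotide reductase subunit that supplies nucleotides for repair in non-dividing cells. It had 6.51 and 7.18 CPM in PTC 1 and 2, against 5.62 and 4.71 CPM in Control 1 and 2, from 100 and 117 counts in PTC and 88 and 75 counts in Control libraries. Both PTC libraries stood above both Control libraries. The log2 fold change was 0.41 (standard error 0.20, edgeR adjusted p = 0.415), close in size to that of Ccng1 but with a wider interval, a fold of 0.986 to 1.78. An annotated antisense gene, Gm49085, shares 8.04% of the exon bases of Rrm2b and had 1 count in Control 1 and 0 in the other libraries. Of the 50-base words of Rrm2b 11.0% also occur, on either strand, in transcripts of other genes, which were Gm49085 and Gm8616. Gm8616 had 0 counts in each library.

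**Figure D2:**
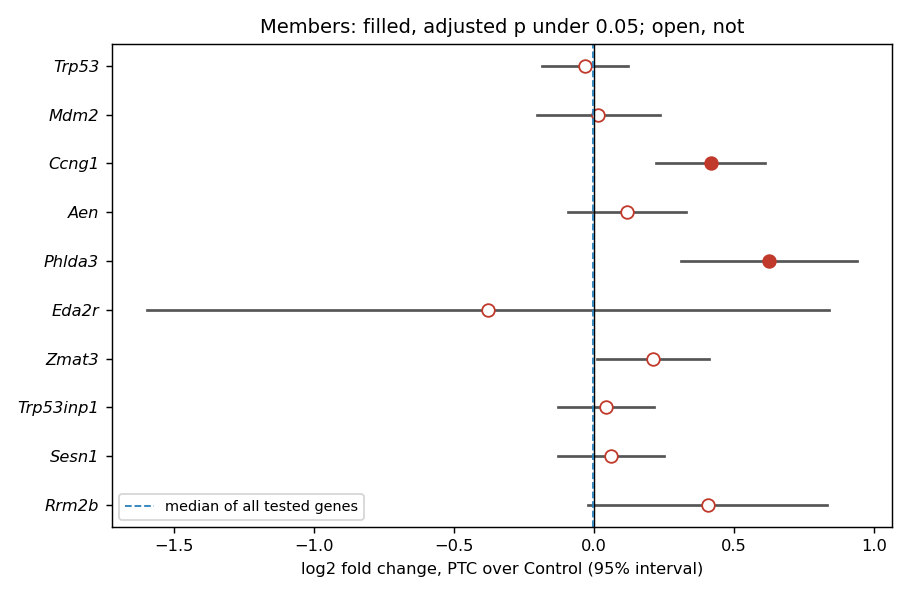
Log2 fold change, PTC over Control, of each member (x axis) with its 95% interval by edgeR. Filled points passed an adjusted p of 0.05 (Ccng1 at 0.42 and Phlda3 at 0.63), open points did not, and the dashed line marks the median of all tested genes (-0.003).

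Within the PTC group the members differed by library. In PTC 1, 7 of 10 members stood above both Control libraries, 1 below both (Trp53) and 2 between them, whereas in PTC 2, 3 stood above (Ccng1, Phlda3 and Rrm2b), 1 below (Eda2r) and 6 between them. Over all tested genes the shares above both Control libraries were alike, 34.7% for PTC 1 and 33.1% for PTC 2. PTC 1 was the highest of the 4 libraries for 6 of 10 members (Ccng1, Phlda3, Trp53inp1, Sesn1, Zmat3 and Aen), and for 25.3% of all tested genes. The median log2 fold change of the members was 0.03 without PTC 1 and 0.24 without PTC 2, against 0.09 with all 4 libraries, and the number called without PTC 1 was 0 of 10. Over the 10 genes the log2 fold changes ran from -0.38 for Eda2r to 0.63 for Phlda3, and 5 of the 10 were smaller in size than 0.13, the median absolute value of all tested genes.

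**Figure D3:**
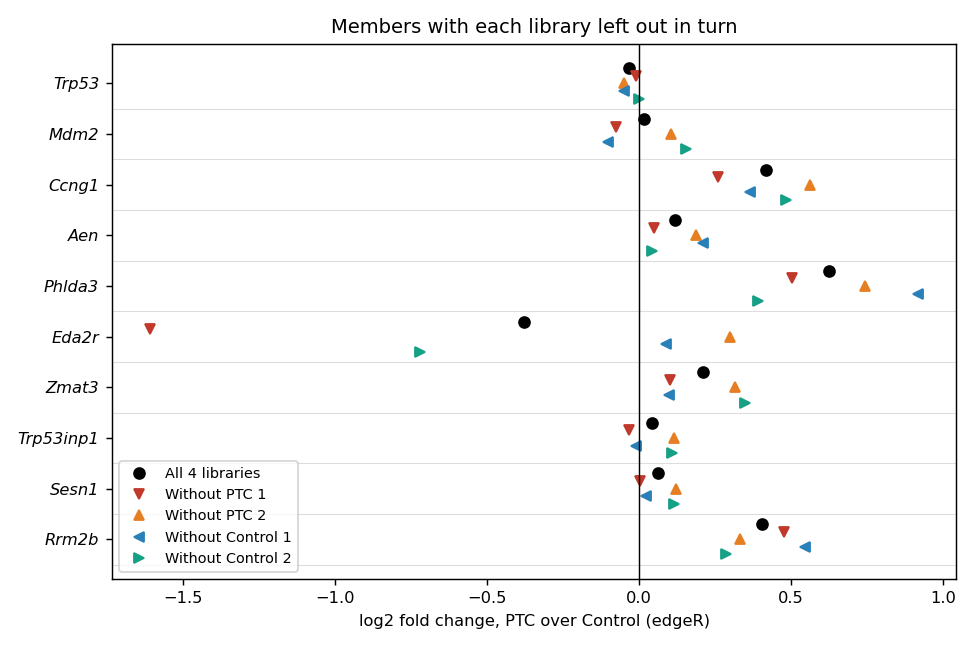
Log2 fold change, PTC over Control, of each member (x axis) with all 4 libraries and with each library left out in turn. For Ccng1 the value runs from 0.26 to 0.56, for Phlda3 from 0.39 to 0.92, and for Mdm2, Trp53inp1 and Eda2r it crosses 0.

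The libraries held from 15458818 to 16639911 counts, and none repeated another (chi-square over its degrees of freedom at least 4.41 for every pair). T cell markers were all present: 12 of 12 were tested, and all 12 had positive log2 fold changes with a median of 0.14, beside 0.09 for the members. For 8 of 12 both PTC libraries stood above both Control libraries, beside 21.3% of all tested genes. By edgeR 0 of 12 passed, beside 1.35% of all tested genes, with 0 by limma-voom and 0 by DESeq2. At an unadjusted edgeR p under 0.05 there were 6 of 12, where rank 1768 of all 13884 tested genes had an unadjusted edgeR p of 0.049. Together the 12 summed to 6075 and 6261 CPM in PTC and 5708 and 5508 CPM in Control libraries. Markers of other cells were present too. Of 13 myeloid markers 2 rose (Lyz2 and S100a8) and 3 fell (Mpo, Elane and Cd14), with sums of 1577 and 1391 CPM in PTC 1 and 2, against 1130 and 1139 CPM in Control 1 and 2, most of it Lyz2 (1358 and 1176 CPM in PTC, 865 and 887 CPM in Control libraries). Without Lyz2 the other 12 summed to 219 and 215 CPM in PTC and 265 and 252 CPM in Control libraries, the opposite direction, a sum taken after the values were seen. Of 8 B cell markers 1 rose (Igkc), with sums of 558 and 568 CPM in PTC and 531 and 523 CPM in Control libraries, and Pax5 and Ms4a1 stayed under 2 CPM in each library. The 4 NK cell markers summed to at most 3.74 CPM, and the 4 erythroid markers, of which 1 fell (Hbb-bt, log2 fold change -2.38, edgeR adjusted p = 0.00027), to 2.08 and 3.01 CPM in PTC and 8.82 and 7.10 CPM in Control libraries, with Alas2 at 0 in every library. The part of these cells in the changes of Ccng1 and Phlda3 was not tested, and in bulk RNA fewer cells of a type and less RNA per cell cannot be told apart.

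Among 45 other p53 target genes, 44 were tested, 1 was called higher (Psrc1) and 1 lower (Gdf15), and 42 did not pass by edgeR. Their median log2 fold change was 0.04 and 26 of 44 were positive, beside 49.3% of all tested genes, of which edgeR called 1.35%. Both PTC libraries stood above both Control libraries for 16 of 44 and below them for 9, beside 21.3% and 22.2% of all tested genes. Psrc1, which encodes a microtubule-associated protein of the mitotic spindle, had 70.6 and 60.0 CPM in PTC 1 and 2, against 44.3 and 39.3 CPM in Control 1 and 2, a log2 fold change of 0.64 (standard error 0.10, adjusted p = 0.0024). Gdf15, which encodes a stress-induced cytokine that the ATF4 and CHOP pathway also activates, had 5.46 and 7.06 CPM in PTC 1 and 2, against 13.8 and 11.8 CPM in Control 1 and 2, a log2 fold change of -1.03 (standard error 0.18, adjusted p = 0.0066). Each kept its call whichever library was left out. They moved in opposite directions, in both cases without overlap between the groups.

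By mean CPM, which is not scaled by gene length, the 4 highest genes of this list were Pml, Btg2, Cdkn1a and Bax. Of these 4, 0 passed. As TPM, Rps27l stood above all 4, at 447 ± 4.03 TPM in PTC and 377 ± 2.16 TPM in Control cells. Bax, the highest of the 4 by TPM, had 242 ± 24.9 and 219 ± 19.2 TPM. Rps27l did not pass by edgeR either (adjusted p = 0.058). Cdkn1a, which encodes the cell cycle inhibitor p21, had 172 and 156 CPM in PTC 1 and 2, against 159 and 137 CPM in Control 1 and 2, with overlap and a log2 fold change of 0.15 (standard error 0.08, edgeR adjusted p = 0.489). Bax, the gene of a pore-forming apoptosis effector, had 166 and 149 CPM in PTC 1 and 2, against 148 and 128 CPM in Control 1 and 2. Its log2 fold change was 0.19 (edgeR adjusted p = 0.354), and it passed the test when Control 1 was left out (0.31, adjusted p = 0.036) but in none of the other 11 alternative settings, where the adjusted p reached 0.994. Btg2, an antiproliferative gene, had a log2 fold change of 0.18 (adjusted p = 0.300), and Pml, the gene of the nuclear body scaffold protein, one of 0.08 (adjusted p = 0.705).

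**Figure D4:**
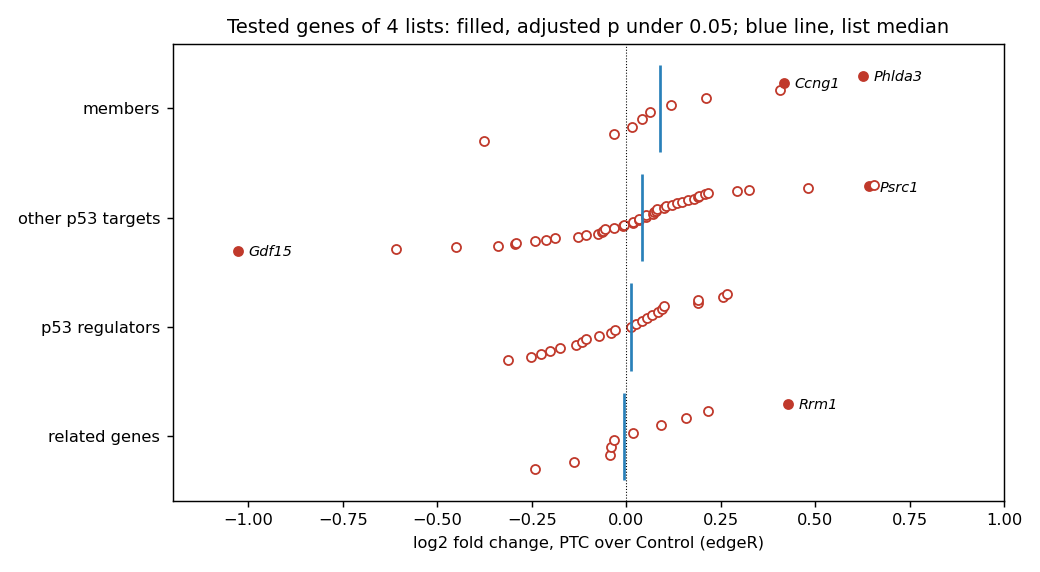
Log2 fold changes, PTC over Control, of the tested genes of 4 lists (rows), with filled points for an adjusted p under 0.05 and a blue line at each list's median. Medians lie between -0.01 and 0.09, and Phlda3, Ccng1, Psrc1 and Rrm1 are the filled points right of 0 and Gdf15 the one left of it.

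Of 25 regulators of p53, 23 were tested and 0 passed by edgeR, beside 1.35% of all tested genes. By limma-voom 0 passed, and by DESeq2 0, with 1 left without an adjusted p. The log2 fold changes were positive for 12 and negative for 11, with a median of 0.01. An unadjusted edgeR p under 0.05 was reached by 2 of 23, Prkdc (-0.25) and Sirt1 (-0.31), which were named after values were seen. Prkdc, at an unadjusted edgeR p of 0.049, stood at rank 1768 of all 13884 tested genes. Both PTC libraries stood above both Control libraries for 3 of 23 and below them for 8, beside 21.3% and 22.2% of all tested genes. Mdm4, which encodes the MDM2 partner that holds p53 inactive, had 71.6 and 70.6 CPM in PTC and 72.2 and 74.2 CPM in Control libraries, a log2 fold change of -0.04 (standard error 0.08, adjusted p = 0.884). Atm, the kinase gene of the response to DNA double-strand breaks, had a log2 fold change of -0.23 (standard error 0.12, adjusted p = 0.426). Cdkn2a, whose ARF product sequesters MDM2 and which BMI1 represses, stood at 2.21 and 1.96 CPM in PTC and 2.24 and 1.26 CPM in Control libraries (log2 fold change 0.26, standard error 0.37, adjusted p = 0.829). The most abundant regulators, the ribosomal protein genes Rpl5 and Rpl11, whose products bind MDM2 under ribosomal stress, had log2 fold changes of 0.07 and 0.05 (adjusted p = 0.747 and 0.847). Usp7, the gene of a deubiquitinase of MDM2 and p53, stood at 0.10 (adjusted p = 0.680) and Daxx, a partner of MDM2, at -0.12 (adjusted p = 0.567).

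Genes related to the members, most of them paralogs, were set beside them. Of 16 such genes, which include the ectodysplasin ligand and Rrm1, 10 were tested and 1 was called by edgeR, beside 1.35% of all tested genes. Rrm1, which encodes the large ribonucleotide reductase subunit that partners the product of Rrm2b and is not its paralog, was the single call, with 395 and 379 CPM in PTC 1 and 2, against 279 and 297 CPM in Control 1 and 2 (log2 fold change 0.43, standard error 0.08, edgeR adjusted p = 0.0068). This call was lost without PTC 1 (0.40, adjusted p = 0.149) and held in the other 11 of 12 alternative settings, with adjusted p down to 6.3e-06. Rrm2, the S-phase partner of Rrm1 and paralog of Rrm2b, stood at 299 and 310 CPM in PTC and 263 and 284 CPM in Control libraries (log2 fold change 0.16, adjusted p = 0.397). Ccng2, the paralog of Ccng1, had 116 and 105 CPM in PTC 1 and 2, against 106 and 112 CPM in Control 1 and 2, a log2 fold change of 0.02 (standard error 0.08, adjusted p = 0.954) beside 0.42 for Ccng1. The difference between the paralogs was not tested. Sesn3 had a log2 fold change of -0.04 (adjusted p = 0.860), and Trp63, the p53-family gene, had 0 counts in each library.

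The 5 genes whose 4-library profile lay nearest the mean profile of the 10 members were Gm6421, Mosmo, Sh3bp5, Zdhhc15 and Sqle. Likeness was the Euclidean distance between log2 CPM values centred per gene, over 4 libraries and among genes averaging 100 counts or more, and ran from 0.023 for Gm6421 to 0.033 for Sqle. Their log2 fold changes lay between 0.13 and 0.19, with 0 of 5 past the threshold (edgeR adjusted p from 0.585 to 0.732). The mean profile gives Eda2r, at 5 to 19 counts per library, the same weight as each other member. Its centred values ran from -0.67 in PTC 2 to 0.41 in Control 1. Which genes lie nearest without Eda2r was not tested.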

How the data were processed

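The authors deposited whole-number read counts per gene, used as deposited. Per the submitters' processing notes, CASAVA 1.8, HISAT2 2.0.5 and featureCounts 1.5.0-p3 were used. Build, strandedness and multi-mapping reads were not given in the sources used here. Coordinates of the 10 members equalled those of GENCODE M21 (GRCm38), as did 98.3% of matched genes. A further 2 count columns matched no sample and were not used. Groups follow the treatment label and replicate numbers the titles. Genes passing filterByExpr (13884) were TMM-scaled and compared with edgeR 4.0.16 (quasi-likelihood, group alone, R 4.3.3), which was tested on simulated data. Limma-voom (limma 3.58.1), DESeq2 1.42.0, other scalings and filters, a replicate block and leaving out each library were alternatives. Intervals are 95% intervals of the fit. Count floors (3 counts) cover counting error only. The members and lists were chosen with earlier results of these data known. Named genes were all members, the called genes and the 4 with the largest mean CPM of each list, Cdkn1a, Bax, Mdm4, Cdkn2a and Atm, and 5 nearest profiles. Eda, Trp63, Trp53-ps, Gm49085, Gm8616, Prkdc, Sirt1, Sesn2, Gadd45a and the cell markers were added after values were seen.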

Additional observations from a re-analysis of the deposited data

How the results depend on the processing

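Leaving out each library in turn moved the number of genes called from 76 (without PTC 1) to 422 (without Control 1), with 188 over all libraries, the members called from 0 to 2, the other p53 targets called from 2 to 4, the related genes called from 0 to 1 (Rrm1) and the members' median log2 fold change from 0.026 to 0.24. In such a fit the lone library of a group is assumed to vary like the other group. In the same fits the log2 fold change ran from -0.10 to 0.16 for Mdm2, -0.031 to 0.12 for Trp53inp1, -1.61 to 0.30 for Eda2r, -0.068 to 0.20 for Rpl11, -0.0026 to 0.22 for Usp7, -0.051 to 0.088 for Ccng2 and -0.10 to 0.74 for Cdkn2a, signs turning in each. Without a filter on low counts 432 genes and 4 of the other targets were called. RLE scaling called 1 member, Ccng1. With library totals alone Mdm2 stood at -0.027 and Ccng2 at -0.023. The regulators had 0 calls in every alternative. Same-numbered libraries did not deviate together (r = -0.06 across genes), and with the replicate number as a block 237 genes and the same 2 members, Ccng1 and Phlda3, were called, with 2 of the other targets, 1 related gene (Rrm1) and a members' median of 0.09. The causes of these differences were not tested. Depth limits genes such as Eda2r, at 5 to 19 counts per library.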

Other observations

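In the same promoter search, 37 of the 45 other p53 targets had a window, 12 of them held the p53 decamer and 1, Cdkn1a, held a pair within the allowed spacing. The Cdkn1a pair, on chromosome 17 of GRCm38.p6, began at -73 and -51 from an annotated start, in the window 29090729 to 29091028. That window spans the first base of the gene in the count table, 29090976.
Cdkn1a, at -73: GGACTAGCTT
Cdkn1a, at -51: GAACATGTCT

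Rps27l, which encodes a ribosomal protein S27 paralog, held 2 decamers at -210 and -107. It had 149 and 153 CPM in PTC 1 and 2, against 125 and 121 CPM in Control 1 and 2, a log2 fold change of 0.29 that missed the threshold by edgeR (adjusted p = 0.058) and limma-voom (adjusted p = 0.056) and passed it by DESeq2 (adjusted p = 0.035). Gtse1, a p53 target expressed in G2 and mitosis, stood at 81.1 and 72.1 CPM in PTC 1 and 2, against 58.6 and 63.8 CPM in Control 1 and 2 (log2 fold change 0.32, edgeR adjusted p = 0.081). Both genes were chosen after their values were seen, and both are higher with PTC. Of the 44 tested genes of this list 14 had an unadjusted edgeR p under 0.05, 8 of them with positive log2 fold changes. Over all 13884 tested genes, an unadjusted edgeR p of 0.049 stood at rank 1768. Among those that were lower, Sesn2 had a log2 fold change of -0.24 (edgeR adjusted p = 0.171) and Gadd45a one of -0.61 (edgeR adjusted p = 0.279).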
